A study of Mus musculus with 248 samples.

Results

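The genes of the cytosolic ribosomal proteins were followed through a mouse model of acute myeloid leukemia. Members were the rows whose symbol is Rpl or Rps with a digit, or Rpsa, Rplp0, Rplp1 or Rplp2, without pseudogenes, Rps6k kinases and predicted genes. They came to 83 of 18508 genes in the table of the training cohort (34 with Rps symbols, 49 with Rpl symbols) and to 79 of 13607 genes in the table of the validation cohort (32 and 47), and 79 were in both. Rpl3l, Rps29, Rpl23a and Rps4y2 were members in the training table alone. Copies of another member made up 6 of the 83 (Rpl3l, Rps4y2, Rpl22l1, Rps27l, Rpl36al and Rpl7l1), and 1 member, Rps19bp1, codes for a protein that binds Rps19 and is not itself a ribosome component. Rps4y2 is named Rps4l in RefSeq today and is listed there as a transcribed pseudogene. Fau and Rack1, which also code for parts of the ribosome, have other symbols and fell outside the rule.

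Ribosomal proteins (Rps in the small subunit, Rpl in the large subunit) assemble with ribosomal RNA into the machine that translates messenger RNA, and a ribosome holds nearly all of them in equal numbers. Their messages carry a tract of pyrimidines (C or T) at the very start, through which mTOR signalling sets how strongly they are translated. Loss of 1 copy of some of these genes causes Diamond-Blackfan anaemia, a failure of red cell production, and free Rpl5 and Rpl11 bind Mdm2 and so stabilise p53.

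Blood from the retro-orbital sinus, labelled PBMC, was sampled repeatedly and its RNA was sequenced in bulk. All mice were C57BL/6, of both sexes, and were given 7 injections of poly(I:C), each of 14 mg/kg, at an age of 4 to 8 weeks, controls included. CM mice carried Cbfb+/56M with Mx1-Cre, so that the interferon-driven Cre switches on the Cbfb-MYH11 fusion, and developed leukemia, defined in the labels by over 20% cKit+ blasts. Ctrl mice were littermates lacking 1 or both alleles, pooled here as a single arm although they carry 3 different genotype labels: 4 CW, 2 HW and 1 WT in the training cohort, and 4 CW, 2 HW and 2 WT in the validation cohort. In the training cohort 55 libraries came from 7 CM mice and 77 from 7 Ctrl mice, from before induction (T0) to month 10 (T10). In the validation cohort 68 came from 13 CM mice and 48 from 8 Ctrl mice, taken at months 0 to 6, in weeks 10 to 28 or in leukemia (L). Each replicate was a separate mouse. Values are log2 CPM, the log2 of the reads of a gene after scaling to the size of its library.

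The first bases of 8 members are shown here, 4 that were higher and 4 that were lower in the leukemia of the validation cohort described later, because the pyrimidine tract at the start is what these messages are known for. Each line has 30 bases in 5′ to 3′ direction from the RefSeq promoter table of GRCm38.p6, 15 before the annotated start and 15 from it, and capitals mark the longest unbroken run of C and T that begins with a C within 10 bases of the start and continues for at least 6 further bases; a run that begins farther away, as in Rpl4, is left in lower case.
Rpl14 (chr9:120571502-120571531, plus strand): gggcgggCCCTCTCTCTTCTCgctgagcgc
Rps26 (chr10:128626492-128626521, minus strand): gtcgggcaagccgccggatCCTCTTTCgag
Rpl4 (chr9:64173372-64173401, plus strand): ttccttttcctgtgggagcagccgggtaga
Rplp0 (chr5:115559452-115559481, plus strand): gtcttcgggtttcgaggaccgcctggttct
Rps27 (chr3:90213634-90213663, minus strand): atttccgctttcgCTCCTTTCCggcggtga
Rps6 (chr4:86857353-86857382, minus strand): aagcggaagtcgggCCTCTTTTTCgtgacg
Rps13 (chr7:116334176-116334205, minus strand): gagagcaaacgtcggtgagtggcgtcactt
Rpl22l1 (chr3:28805493-28805522, plus strand): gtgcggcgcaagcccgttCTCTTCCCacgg

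Of the 83 members, 62 matched an entry in that table and 21 did not. A C followed by at least 6 bases of C or T, beginning within 10 bases of the start on the strand of the gene, was present in 29 of the 62 members (46.8%) and in 3821 of all 27025 genes with an entry (14.1%). A C exactly at the start followed by at least 4 bases of C or T was present in 13 members (21%) and in 813 of all genes (3.01%). The annotated start may differ from the start used in blood, and a window without the run says only that these letters are not in it.

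Before the results, the libraries were checked against their labels. Training libraries held 16 to 36.26 M reads (M, mega) and validation libraries 8.68 to 34.41 M reads. The row named MHY11, read here as the knock-in transcript, had a mean after T0 of 3.26 to 4.61 log2 CPM in 12 of the 13 validation CM mice and of -4.09 in mouse 2700, whose libraries therefore went against the arm in their label. Ctrl mice labelled HW also carried that row in the validation cohort, at 2.97 to 3.07, while CW and WT mice were at -6.3 to -3.7. In the training cohort the row was at -3.46 to -1.48 in CM mice, -5.03 to -4.42 in HW mice and at 0 reads in CW and WT mice. Genes of the sex chromosomes went against the label in 1 library, T0 of validation CM mouse 2731. The training libraries were made with RiboErase in 7 library groups. In the validation cohort, 38 libraries (T0, T1 and L) had an unstranded and 78 a stranded TruSeq preparation by their labels. Each month was its own sequencing batch. T0, T1 and L therefore also differ in batch, and time and batch cannot be told apart there. At T0 of the leukemic validation mice, markers of neutrophils summed to 4370 to 11800 CPM and those of red cells to 2210 to 20300, beside 5270 to 9490 for B cells, under the label PBMC.

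Ribosomal protein messages spanned a wide range in blood before induction. Per kilobase of exon, Rpl8 was the highest at T0 with 831 CPM in the training and 1210 CPM in the validation cohort. Rpl3l, a copy of Rpl3 known from muscle, was the lowest in the training cohort with 0.392 CPM per kilobase, and Rpl28 was the lowest in the validation cohort with 3.49. The highest member was 2120 times the lowest in the training cohort and 347 times in the validation cohort, and the 10 highest held 63.7% and 58.1% of the sum. Members with no named pseudogene in the annotation had a median of 90.7 CPM per kilobase (14 members, training cohort), those with 1 to 5 had 34.2 (43 members) and those with 6 or more had 12.4 (19 members). The validation cohort had the same order, with 252, 63 and 29.6 CPM per kilobase. Ribosomal protein genes have many near-identical processed pseudogenes, and how the deposited counting divided reads between them is not given in the sources used here, so the level of any single member is uncertain.

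The share of all reads that fell in these genes was similar in both arms before induction. In the training cohort it was 0.608%, 0.936% and 1.08% (lowest, median and highest) in CM mice at T0 and 0.889%, 1% and 1.05% in Ctrl mice. In the validation cohort it was 1.44%, 1.58% and 1.83% in CM mice and 1.32%, 1.5% and 1.84% in Ctrl mice. In leukemia (L) the share was 1.2%, 1.71% and 2.02%, a range that overlapped T0. In the last training libraries of CM mice it was 0.294%, 1.34% and 1.71%, and in 3 of the 7 it was above every Ctrl library of that cohort. In Ctrl mice of the training cohort it fell to a median of 0.252% at T10. Fewer cells of a type and less RNA per cell cannot be told apart in these bulk samples.

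**Figure D1:**
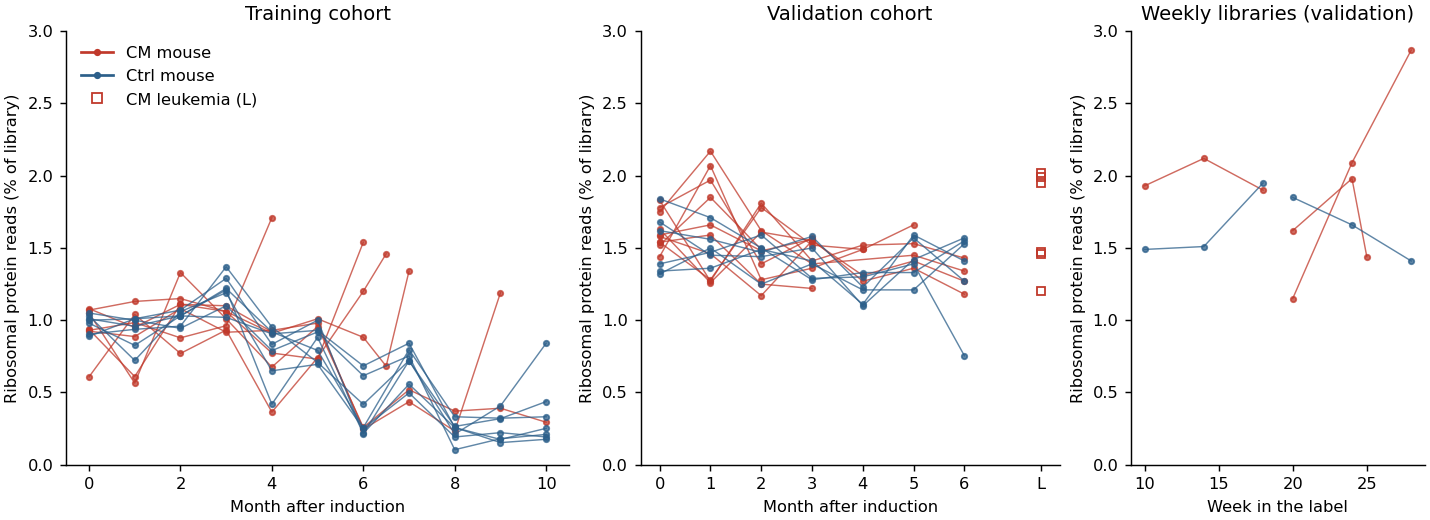
Share of reads in ribosomal protein genes (vertical axis, % of the library) against month, leukemia (L) or week for each CM and Ctrl mouse, each line being 1 mouse. Ctrl mice of the training cohort fall from a median of 1% at month 0 to 0.252% at month 10, and the leukemia libraries sit between 1.2% and 2.02%.

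The first question was whether these genes differed between the arms at each month. In the training cohort the CM group of month 4 included the last libraries of mice 3338 and 3357. That of month 6 included the last library of mouse 3341. In the validation cohort mouse 2700, whose knock-in row was low, stayed in the CM arm. Mice labelled HW, which carried that row, stayed in the Ctrl arm. The only calls were 2 members at 1 month of the validation cohort. In the training cohort limma called 0 of 83 members in any of months 0 to 6, where 0.0054%, 5.02%, 11.7%, 0.632%, 0.0054%, 0% and 0.0162% of all genes were called in turn. At an unadjusted p under 0.05 there were 4, 0, 5, 20, 0, 1 and 4 members in those months, where 9.27%, 22.1%, 27.4%, 15.1%, 5.57%, 8.55% and 8.97% of all genes were. In the validation cohort limma called 0 of 79 members at months 0, 2, 3, 4, 5 and 6, where 0%, 0.147%, 0%, 0%, 0% and 0% of all genes were called, with 0, 0, 2, 9, 3 and 0 members at an unadjusted p under 0.05, where 1.53%, 10.1%, 16.3%, 2.71%, 8.59% and 3.45% of all genes were. At month 1, 2 of 79 members (2.53%) were lower in CM mice, against 20.6% of all genes, and the same 2 were the only members at an unadjusted p under 0.05, where 41.6% of all genes were.

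Those 2 members were Rpl10, a large subunit protein, and Rpl24, a large subunit protein at the interface of the subunits. Rpl10 was at 4.88, 5.11 and 5.36 log2 CPM (lowest, median and highest) in 10 CM mice and at 5.17, 5.40 and 5.51 in 6 Ctrl mice. Its difference was -0.26 ± 0.08 (SE, adjusted p = 0.0201), and the ranges overlapped. Rpl24 was at 5.97, 6.20 and 6.34 in CM mice and at 6.13, 6.43 and 6.62 in Ctrl mice, a difference of -0.25 (adjusted p = 0.0227), also with overlap. Neither call held in every alternative: without Ctrl mouse 2689 no member was called, Rpl24 was also lost without mouse 2683 or 2692 and under median-ratio scaling (-0.17, adjusted p = 0.0756), and Rpl10 without mouse 2720.

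Among the months without a call, month 3 of the training cohort had the most members at a low unadjusted p. Rps14, a small subunit protein whose loss is linked to anaemia in a form of myelodysplastic syndrome, was at 8.29, 8.63 and 9.60 log2 CPM in 7 CM mice and at 9.03, 9.49 and 10.04 in 7 Ctrl mice (difference -0.83 ± 0.21, adjusted p = 0.0897). Rpl34 was at 6.75, 6.88 and 7.07 in CM mice and at 6.98, 7.38 and 7.45 in Ctrl mice (difference -0.39, adjusted p = 0.108). Both sets overlapped and neither passed the test. The arms did not overlap for 3 of the 83 members, where 2.43% of all genes did not: Rps15 (-0.32, adjusted p = 0.198), Rps28 (-0.39, adjusted p = 0.111) and Rps4y2 (-0.97, adjusted p = 0.142). At month 2 of the training cohort Rpl14 was at 6.41, 6.79 and 7.20 in CM and at 6.36, 6.54 and 6.62 in Ctrl mice (difference 0.32, adjusted p = 0.0793). Rpl14 reappears among the largest changes in leukemia.

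The other months are given by their 2 members of lowest p, none of which passed the test. In the training cohort these were Rps27 (-0.47 ± 0.14, adjusted p = 0.409) and Rps29 (-0.52, adjusted p = 0.491) at month 0, before induction, and Rpl24 (-0.30, adjusted p = 0.25) and Rpl7l1 (-0.33, adjusted p = 0.279) at month 1. They were Rps6 (-0.74, adjusted p = 0.889) and Rps7 (-0.63, adjusted p = 0.91) at month 4, and Rps19bp1 (-0.32, adjusted p = 0.572) and Rps4y2 (-0.77, adjusted p = 0.617) at month 5. In the validation cohort they were Rpsa (0.14) and Rpl39 (0.17) at month 0, both with an adjusted p of 1, and Rpl14 (0.38, adjusted p = 0.493) and Rps2 (0.27, adjusted p = 0.509) at month 2. Rps2 (0.34) and Rpl10 (-0.34) followed at month 3, both at an adjusted p of 0.298, Rpl10a (0.27) and Rps26 (0.24) at month 5, both at 0.573, and Rps25 (-0.34) and Rpl24 (-0.21) at month 6, both at 0.87. The CM and Ctrl ranges overlapped for each of these members.

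In several months most members lay on 1 side of 0 without passing the test singly, and this was so before induction too. At training month 0, 77 of 83 members were below 0 (median -0.12 against -0.04 for all genes), and at month 1 also 77 (median -0.13 against -0.18). At validation month 0, 65 of 79 members were above 0 (median 0.09 against 0.01), and at month 5, 70 were (median 0.08 against 0.05). At validation month 1 the median member was at 0.08 and the median gene at -0.09, with 51 members above 0.

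The largest medians were at 2 later months. At month 6 of the training cohort 76 of 83 members were above 0, with a median difference of 0.66 against 0.13 for all genes. At that month Rplp2, a protein of the ribosomal stalk, which recruits translation factors, was at 5.86, 7.06 and 7.66 log2 CPM in 5 CM mice and at 4.44, 5.17 and 6.62 in 7 Ctrl mice (difference 1.28 ± 0.48, adjusted p = 0.437). At month 4 of the validation cohort 75 of 79 members were above 0, with a median of 0.19 against 0.05 for all genes. Its smallest p belonged to Rpl22l1, at 5.09 to 5.48 in 5 CM mice and 4.72 to 5.11 in 6 Ctrl mice (difference 0.31, adjusted p = 0.772). The arms did not overlap for 2 of the 79 members, Rpl10a (0.28) and Rpl6 (0.21), both at an adjusted p of 0.772, where 1.37% of all genes did not overlap. Members share the same libraries and are not replicates of a condition.

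Between T0 and L these genes changed unevenly, and batch and time changed with the label. In the validation cohort the L library of 6 CM mice was compared with T0 of the same mice, and limma called 13 of 79 members higher (16.5%) and 33 lower (41.8%), where 31.4% of all genes were higher and 33% lower. The median member changed by -0.37 and the median gene by -0.04. The share of members called lower was above the share of all genes and the share called higher was below it. The 2 groups of libraries did not overlap for 24 of 79 members, where 43.8% of all genes did not. Against T1 of the same mice 7 members were higher (8.86%) and 31 lower (39.2%), where 29.2% of all genes were higher and 34.1% lower, and 22 of 79 members did not overlap, where 41.5% of all genes did not.

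The same 7 members were called higher against T0 and against T1: Rpl4, Rpl14, Rpl23, Rpl7l1, Rps24, Rps26 and Rps27l. Both comparisons use the same L libraries, and the share of all genes called higher in both is not given here. Rps26, a small subunit protein at the exit channel of the messenger RNA and a Diamond-Blackfan gene, was at 7.60, 8.16 and 8.37 log2 CPM in L and at 5.92, 6.37 and 6.48 at T0. Every L library was above every T0 library, and the difference was 1.77 ± 0.11 (SE, adjusted p = 7.42e-06, higher in 6 of 6 mice). Rpl14, a large subunit protein, was at 8.20, 8.56 and 9.02 in L and at 6.97, 7.14 and 7.38 at T0. Its difference was 1.46 ± 0.12 (adjusted p = 3.03e-05), again without overlap and in 6 of 6 mice. Rpl4, among the most abundant members, went from 9.71, 9.97 and 10.06 to 10.48, 10.78 and 11.06, by 0.83 ± 0.14 (adjusted p = 0.000938).

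Rps24 and Rpl23 rose less and with overlap. Rps24, a small subunit protein mutated in Diamond-Blackfan anaemia, rose by 0.59 ± 0.14 (adjusted p = 0.00709) in 6 of 6 mice. Rpl23, which like Rpl5 and Rpl11 can bind Mdm2, rose by 0.77 ± 0.22 (adjusted p = 0.0132) in 5 of 6 mice. Rpl32, Rplp0, Rplp1, Rps15, Rps19bp1 and Rps2 were called higher against T0 and not against T1.

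The decreases were larger than the increases. Rps27, a small subunit protein with a zinc finger, was at 2.29, 2.79 and 3.01 log2 CPM in L and at 5.08, 5.24 and 5.44 at T0. All 6 mice fell, without overlap, and the difference was -2.54 ± 0.17 (adjusted p = 1.01e-05). Rps13, a small subunit protein that lies near the interface, was at -1.95, 0.39 and 1 in L and at 1.86, 2.24 and 2.69 at T0. It fell by 2.24 on the log2 scale (SE 0.39, adjusted p = 0.00131), and the lowest L library, of mouse 2718, held 5 reads of it.

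Rps6, the small subunit protein that S6 kinase phosphorylates downstream of mTOR, went from 3.40, 3.68 and 3.91 to 1.60, 2.01 and 2.32, by -1.67 ± 0.19 (adjusted p = 0.000141). It fell in 6 of 6 mice without overlap. Against T1 these genes fell as well, Rps27 by 1.69, Rps13 by 1.66 and Rps6 by 1.5 on the log2 scale. Rps16 also fell against T1, by -2.11 ± 0.49 (adjusted p = 0.0057), and the largest increases against T1 were those of Rpl14 (1.22 ± 0.16), Rps26 (0.96 ± 0.13), Rpl23 (0.89 ± 0.12) and Rps27l (0.86 ± 0.27). Without mouse 2684, whose L library is taken up below, Rps16 changed by -1.58 ± 0.29 against T1 (limma, adjusted p = 0.0031). In all, 29 members were lower against both earlier times, and Rpl35a, Rpl36, Rps15a and Rps9 against T0 alone. The share of all genes called lower against both times is not given here, and the L libraries are the same in both.

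**Figure D2:**
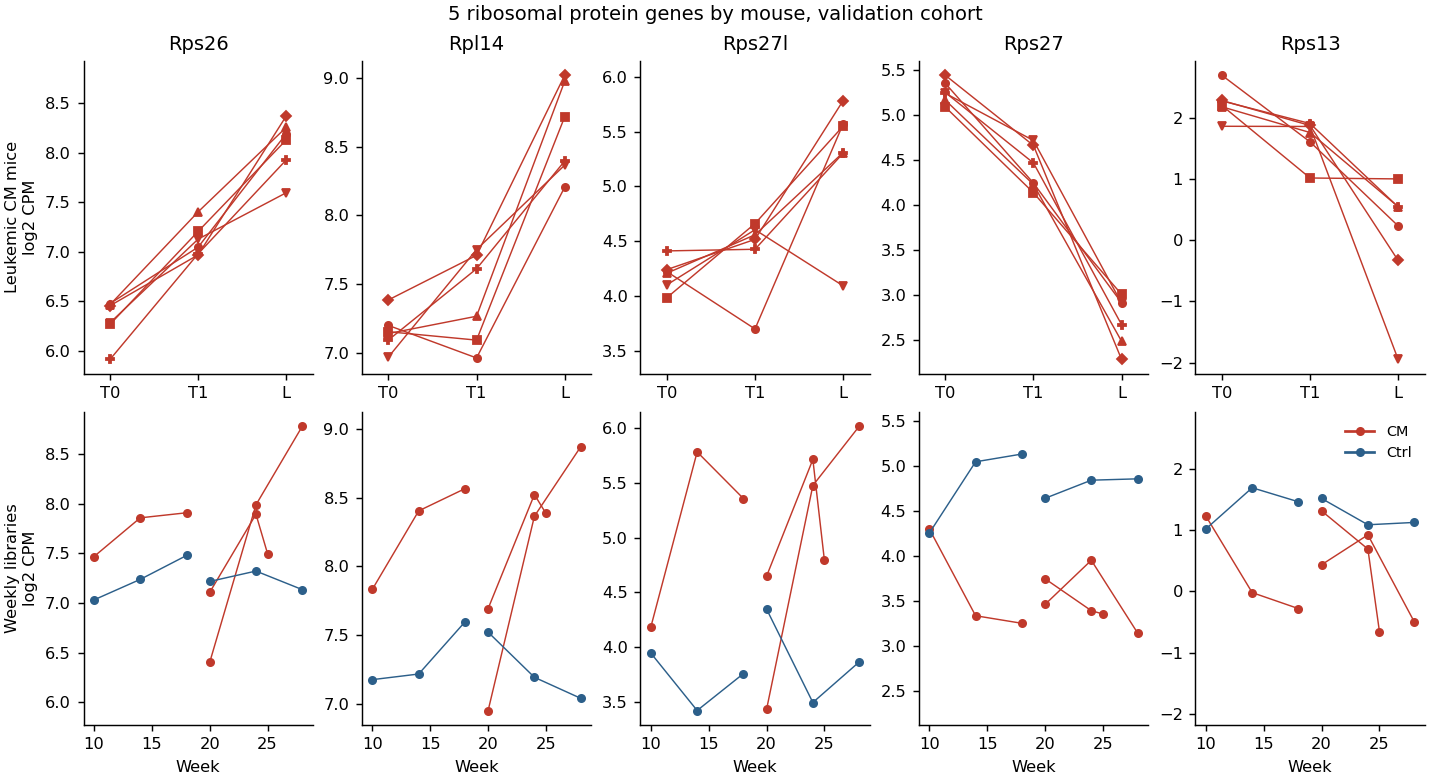
Levels of 5 ribosomal protein genes (vertical axes, log2 CPM) in 6 leukemic CM mice of the validation cohort at T0, T1 and L (upper row, 1 line and symbol per mouse) and in the weekly libraries of 3 CM and 2 Ctrl mice (lower row). Rps26 and Rpl14 are higher in L than at T0 in every mouse, and Rps27 and Rps13 are lower in every mouse, while Rps27l is not higher in mouse 2718.

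Some members and their copies moved apart. While Rps27 fell, its copy Rps27l, which p53 can induce, was at 4.10, 5.43 and 5.78 log2 CPM in L and at 3.99, 4.22 and 4.41 at T0. It rose by 1.07 ± 0.22 (adjusted p = 0.00266) in 5 of 6 mice, the exception being mouse 2718, where it changed by -0.009. Against T1 the call of Rps27l was lost without mouse 2684, 2690, 2719 or 2731. Rpl22 was at 7.76, 8.25 and 8.54 in L and at 7.85, 7.92 and 8.11 at T0 (difference 0.27 ± 0.13, adjusted p = 0.0948). Its copy Rpl22l1, which Rpl22 is known to repress, was at 3.26, 4.59 and 4.84 in L and at 5.55, 5.77 and 5.98 at T0, lower in 6 of 6 mice (adjusted p = 0.000334). Rpl7 differed by 0.02 (adjusted p = 0.901) while its relative Rpl7l1 rose by 0.69 ± 0.12 (adjusted p = 0.00104). Rpl36a differed by -0.48 and Rpl36al by -0.14, and neither passed the test. The difference between a member and its copy was not itself tested.

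By role, the stalk was divided. Rplp0, the base of the stalk, rose by 0.47 (adjusted p = 0.0334) and Rplp1 by 0.38 (adjusted p = 0.0278), both with overlap, and neither passed against T1. Rplp0 lost the call without mouse 2690, 2708, 2719 or 2731, and Rplp1 without mouse 2690, 2708 or 2719. Rplp2 differed by -0.23 (adjusted p = 0.26), and Rpl12, which anchors the stalk, went from 5.63, 5.95 and 6.07 log2 CPM at T0 to 3.49, 4.27 and 5.03 in L, by -1.57 ± 0.16 (adjusted p = 8.29e-05). The Mdm2-binding pair were both lower. Rpl11 was at 2, 2.76 and 3.97 in L and 3.79, 3.96 and 4.33 at T0 (-1.16 ± 0.23, adjusted p = 0.00239, lower in 6 of 6 mice with overlap). Rpl5 differed by -0.75 ± 0.27 (adjusted p = 0.0384, lower in 4 of 6 mice), a call lost without mouse 2690, 2708, 2718 or 2719.

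Of the 19 Diamond-Blackfan genes measured, 2 were higher and 12 lower, with a median of -0.75, where 31.4% of all genes were higher and 33% lower with a median of -0.04. Rps19, the gene most often mutated in that disease, differed by -0.24 (adjusted p = 0.314) against T0 and by -0.69 (adjusted p = 0.0473) against T1, the latter lost without mouse 2708, 2718, 2719 or 2731. Rps14 differed by -0.44 (adjusted p = 0.082). The subunits were counted apart, without a test between them: 4 of 30 small subunit members were higher and 15 lower (median -0.45), and 6 of 44 large subunit members were higher and 17 lower (median -0.37), without copies and Rps19bp1. Rpl8, the highest member, differed by 0.21 (adjusted p = 0.289), and Rpl28, the lowest, by -0.49 (adjusted p = 0.19).

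The calls differed along the levels of the members. With members in order of their level per kilobase at T0, the lowest 26 had 2 higher and 16 lower (median -0.79), the next 26 had 3 higher and 11 lower (median -0.42), and the highest 27 had 8 higher and 6 lower (median -0.09). Rps27, with the largest decrease, was nonetheless in the highest of these groups. The members were also divided by the pyrimidine run, as a description: the 29 members with a run near the start had 4 higher and 11 lower (median -0.37) and the 32 measured members without it had 7 higher and 14 lower (median -0.30). By the run exactly at the start, 13 members had 1 higher and 6 lower (median -0.49) and 48 without it had 10 higher and 19 lower (median -0.36). Of the members shown above, Rps26, which rose, and Rps27 and Rps6, which fell, all carry the run.

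Other genes of translation were read in the same libraries, where 31.4% of all genes were higher and 33% lower. Of 24 genes of ribosome biogenesis, the making of ribosomal RNA and its assembly, 15 were higher in L than at T0 and 0 lower (median 0.66). Of 72 genes of mitochondrial ribosomal proteins, 42 were higher and 1 lower (median 0.48). Of 18 genes of elongation and other translation factors, 12 were higher and 2 lower (median 0.52). The difference between these lists and the members was not tested.

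Markers of blood cell types moved with these changes. All 13 B cell markers and all 15 T cell markers measured were lower in L than at T0, with a summed level of 153 to 670 CPM against 5270 to 9490 for B cells and of 162 to 728 against 888 to 1610 for T cells. Of 7 basophil and mast cell markers 6 were higher, summing to 9770 to 22200 CPM against 152 to 356, and of 13 stem and progenitor markers 9 were higher and 2 lower, with 2450 to 4740 against 264 to 346. No B or T cell marker was at 0 reads in any of these libraries. All 10 cell cycle genes were higher (median 3.49). Their part in the changes of the members was not tested.

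The preparation also touched single members. From T1 (unstranded) to T2 (stranded) in 6 Ctrl mice, 9 of 79 members (11.4%) differed by more than 1 on the log2 scale, as did 6.2% of all genes. Rpl38 went from 5.98 to 1.15, Rps16 from 6.11 to 1.71, Rps7 from 6.98 to 3.67 and Rps25 from 6.61 to 4.57, while Rpl39 went from 7.07 to 8.61 and Rpl7a from 5.72 to 7.65. These are means over 6 mice, and month and batch changed with the preparation. The library labelled L of mouse 2684, unstranded by its label, was nearer to the median of the stranded libraries in 8 of these 9 members. The number that ends its title falls among those of the stranded month 5 libraries. The numbers of the other 5 L libraries lie apart from these. It held Rps16 at 1.01, where the 32 unstranded T0 and T1 libraries ranged from 5.07 to 6.51 and the 63 stranded ones from -0.46 to 2.33. The other 5 L libraries were nearer to the stranded median in 1 to 3 of the 9.

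**Figure D3:**
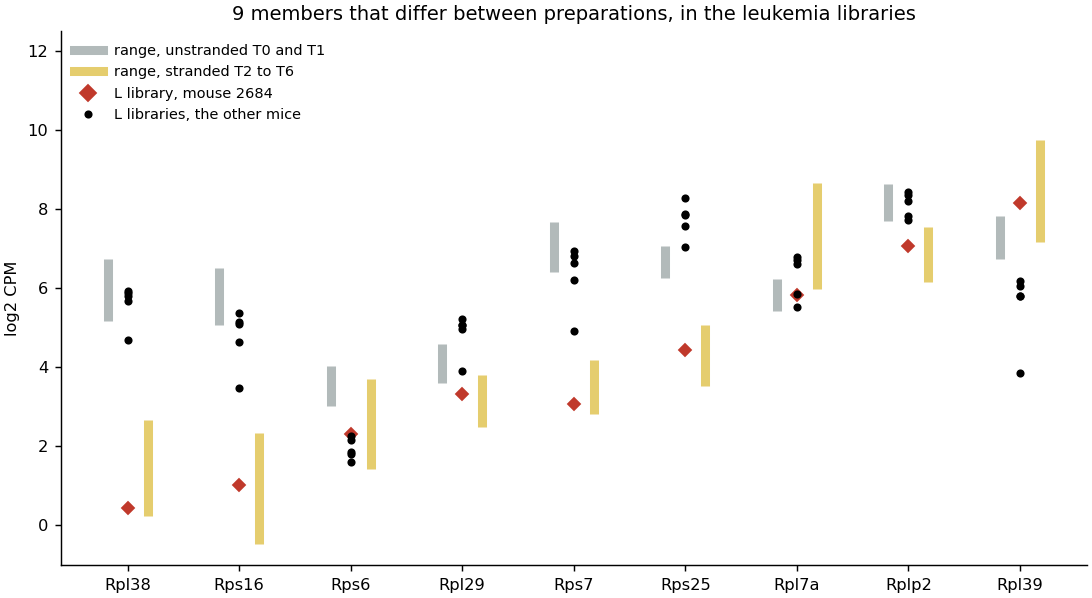
Levels (log2 CPM) of the 9 ribosomal protein genes that differed by more than 1 between preparations in Ctrl mice, with bars for the range of 32 unstranded and 63 stranded validation libraries and points for the 6 leukemia libraries. The library of mouse 2684 (diamond) sits with the stranded range for Rpl38, Rps16, Rps7 and Rps25, away from the other leukemia libraries.

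The counts were therefore taken again without that mouse. Against T0, 17 members were then higher and 31 lower, where 29.5% of all genes were higher and 31% lower, and against T1 7 were higher and 33 lower, where 27.1% and 33.7% of all genes were. Without mouse 2731, whose T0 library went against its sex label, 10 were higher and 29 lower against T0, where 28.9% and 33.3% of all genes were. Without both mice 11 were higher and 26 lower, where 26.4% and 31.9% of all genes were. Among the 70 members that differed by 1 or less between preparations, 13 were higher and 29 lower with all 6 mice. Single members of the sensitive group did change: Rps25 differed by 0.49 (adjusted p = 0.362) with mouse 2684 and by 1.05 (adjusted p = 0.00132) without it. Rps16 went from -1.37 to -0.76 and Rps7 from -1.21 to -0.70, both called either way but lost without mouse 2718, 2719 or 2731, and Rpl38 from -0.80 to 0.06, called in neither. Rps26, Rpl14, Rps27l, Rpl4, Rps27, Rps13 and Rps6 were called against T0 whichever 1 of the 6 mice was left out.

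Ctrl mice without leukemia show how far T0 and T1 differ by themselves. In 6 validation Ctrl mice, 17 members were higher at T1 than at T0 (21.5%) and 12 lower (15.2%), where 25.7% of all genes were higher and 7.58% lower; with median-ratio scaling, which moved the median gene by -0.13, the split was 14 higher and 27 lower, where 15.1% of all genes were higher and 15.2% lower. Rps26 went from 5.89, 6.25 and 6.52 log2 CPM to 6.70, 7.13 and 7.31, by 0.88 ± 0.09 (adjusted p = 0.00144), without overlap. Rps27 went from 4.93, 5.25 and 5.41 to 4.36, 4.63 and 4.86, by -0.59 ± 0.06 (adjusted p = 0.00132), without overlap. Both had the sign they took in leukemia, at a smaller size. Rps16 (0.66) and Rpl10a (0.58) were among the next increases, and Rps23 (-0.43, lost without 5 of the 6 mice in turn), Rpl7 (-0.41) and Rps4x (-0.34) the next decreases. Rpl14 differed by -0.04 (adjusted p = 0.659), Rps27l by -0.05 and Rps6 by -0.12, none of them called. T0 and T1 were different batches of the validation cohort, so that month, treatment and batch cannot be told apart. In the training cohort 0 of 83 members was called by limma between T0 and T1 of Ctrl mice, where 0% of all genes were, with 1 member at an unadjusted p under 0.05 (Rpl13, -0.22, adjusted p = 0.769).

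The training cohort gave a second view, at the end of the follow-up of its CM mice. No training library is labelled as leukemia. The last library of each of its 7 CM mice (T4 to T10) was compared with its own T0, and limma called 0 of 83 members higher and 12 lower (14.5%), where 10.1% of all genes were higher and 35.9% lower. The median member changed by -0.03 and the median gene by -0.57. Among the largest decreases were Rps4y2, Rps13 and Rps27. Rps13 was at -2.02, -0.94 and 0.38 log2 CPM in the last libraries and at 0.84, 1.67 and 2.10 at T0, lower in 7 of 7 mice without overlap, by -2.45 ± 0.46 (adjusted p = 0.00126). Rps27 was at 0.17, 1.19 and 2.88 against 2.88, 3.58 and 4.14, by -2.35 ± 0.41 (adjusted p = 0.000812), lower in 7 of 7 mice, and the highest last library (2.877) lay just under the lowest T0 library (2.879).

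Rps4y2 changed by -2.48 ± 0.51 (adjusted p = 0.00219), Rpl10 by -1.80 ± 0.33 (adjusted p = 0.00123) and Rpl24 by -1.14 ± 0.28 (adjusted p = 0.00599), each in 7 of 7 mice without overlap. Members that rose in the validation cohort were spread widely here. Rpl14 was at 4.71, 7.90 and 8.38 in the last libraries and at 5.82, 6.55 and 6.80 at T0 (0.87 ± 0.42, adjusted p = 0.112), higher in 6 of 7 mice. Rps27l was higher in 6 of 7 mice as well (1.01 ± 0.46, adjusted p = 0.098), and Rps26 in 5 of 7 (0.57 ± 0.41, adjusted p = 0.278). Mouse 3368 was lower for all 3, and mouse 3357 also for Rps26 (-0.04).

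Of the roles followed above, Rpl5 fell (-0.996 ± 0.338, adjusted p = 0.0307, lower in 7 of 7 mice), a call lost without mouse 3336, 3338, 3341 or 3370 and under median-ratio scaling. Rpl11 differed by -0.15 (adjusted p = 0.75), Rplp0 by 0.67 (adjusted p = 0.109), Rplp1 by 0.66 (adjusted p = 0.155), Rplp2 by 0.18, Rps14 by 0.36, Rps19 by 0.17 and Rpl8 by 0.35. Among copies, Rpl22l1 differed by -0.24 beside 0.09 for Rpl22, Rpl3l by -1.03 (adjusted p = 0.115) beside 0.08 for Rpl3, and Rpl7l1 by -0.03 beside 0.21 for Rpl7, none of them called.

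The last library of mouse 3368, taken at T10, stood apart. It held 0.294% of its reads in these genes and 21.7% in globin, where the other 6 last libraries held 0.92% to 1.71% and 0.213% to 10.9%. Without it, 18 members were higher and 12 lower, where 19.4% of all genes were higher and 39.1% lower. With median-ratio scaling, which moved the median gene by 0.67, 43 were higher and 7 lower, where 28.1% of all genes were higher and 23.6% lower. Under it Rpl14 (1.54, adjusted p = 0.00319), Rps27l (1.68, adjusted p = 0.00441) and Rps26 (1.24, adjusted p = 0.00731) passed the test. Rps13, Rps27 and Rps4y2 fell under that scaling too, with -1.78, -1.68 and -1.81. The decreases of these 3 were called whichever of the 7 mice was left out. B cell markers were lower in 13 of 13 and T cell markers in 15 of 15 in this comparison too, with summed levels of 390 to 2530 CPM against 3010 to 9480 and of 207 to 1080 against 715 to 2400. Of 24 ribosome biogenesis genes limma called 0 in either direction, and of 74 mitochondrial ribosomal genes 0 higher and 3 lower.

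Between the cohorts, 10 members measured in both tables were lower in the last training libraries, and 9 of them were lower in L against T0, among them Rpl5, Rpl9, Rpl10, Rpl12, Rpl24, Rps6, Rps13 and Rps27. These 9 are 90% of the training list and 27.3% of the 33 in the validation list. Rpl36a was the other one of the 10. Of all genes, 35.9% were called lower in the training and 33% in the validation comparison. The matching overlap and count of equal signs over all genes are not given here. The change had the same sign in 56 of 79 members, with a Spearman correlation of 0.63 and a Pearson correlation of 0.70 over 79 members, given as a description since members share libraries, base composition and counting. The cohorts had different mice, preparations and tables.

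**Figure D4:**
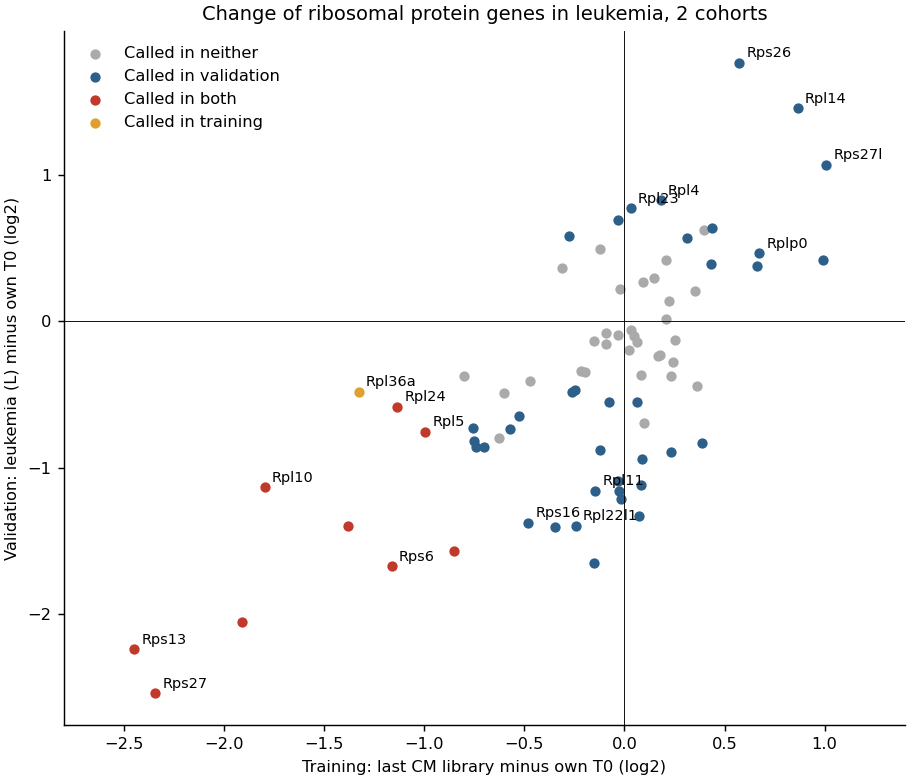
Change of the 79 ribosomal protein genes measured in both cohorts (log2), the last training CM library minus T0 on the horizontal axis and validation leukemia minus T0 on the vertical axis, each point being 1 gene. The 9 genes called lower in both cohorts lie at the lower left, with Rps27 at -2.35 and -2.54.

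In Ctrl mice of the training cohort every member was lower at the end. At T10, 83 of 83 members were called lower than at T0 (100%), where 10.5% of all genes were higher and 72.7% lower, and 55 of 83 did not overlap, where 44.3% of all genes did not. The median member changed by -2.01 and the median gene by -1.81. With median-ratio scaling, which moved the median gene by 1.69, 5 members were higher and 27 lower, where 26% of all genes were higher and 20.6% lower. Rps27 was at -1.35, 0.65 and 3.22 log2 CPM at T10 and at 3.64, 4.00 and 4.20 at T0 (-3.16 ± 0.57, adjusted p = 0.00131), and Rpl10 changed by -2.96 ± 0.48 (adjusted p = 0.00129). Rpl38 and Rpl3l also had large fitted changes, but each had 2 of 7 libraries at 0 reads, which a count of 0 leaves at up to 3 reads.

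The smallest changes at T10 were those of Rpsa, which also serves as a laminin receptor (-0.73 ± 0.26, adjusted p = 0.0235), Rps14 (-0.86, adjusted p = 0.0102) and Rplp0 (-0.96, adjusted p = 0.00198), and all 3 had the opposite sign under median-ratio scaling (0.96, 0.84 and 0.73). The call of Rpsa was lost without mouse 3339, 3342, 3346 or 3350. Globin took 4.21%, 31.2% and 38.5% of the reads at T10 and a median of 1.02% at T0. Red cell markers were higher in 10 of 10 (summed level 9520 to 79700 CPM against 1090 to 4760), platelet markers in 10 of 10, and B and T cell markers lower in 13 of 13 and 15 of 15. With globin reads left out of the totals, 81 members were lower. The share of all genes under that setting is not given here, and with globin reads kept it was 72.7%. The part of the other changes was not tested.

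The change in CM mice was then set against that in Ctrl mice. The change in CM mice was above the Ctrl change to T10 for 61 of 83 members (73.5%) and below it for 0, where 33.7% of all genes were higher and 4.92% lower. The median member differed by 1.83 and the median gene by 0.95. In CM mice themselves no member was called higher than at T0, and in Ctrl mice all 83 were lower. Rpl14 changed by -1.79, 1.42 and 2.08 on the log2 scale in CM mice and by -3.26, -2.39 and -0.47 in Ctrl mice, a net difference of 3.06 ± 0.60 (adjusted p = 0.00423). Rps27l differed by 2.79 ± 0.62 (adjusted p = 0.00632), Rpl29 by 2.73 ± 0.66 (adjusted p = 0.00795) and Rps26 by 2.65 ± 0.57 (adjusted p = 0.00572). The ranges of the arms overlapped for every member, and the matching share of all genes is not given here.

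Rps13 and Rps27, which fell in L and in the last training libraries, had no net difference that passed the test. Rps13 differed by -0.22 ± 0.74 (adjusted p = 0.838) and Rps27 by 0.92 ± 0.74 (adjusted p = 0.346). Rpl38 was called (3.09 ± 1.16, adjusted p = 0.0434) but not with median-ratio scaling, a pseudocount of 1 CPM or globin left out, and the call was lost for 10 of the 14 mice left out in turn. With median-ratio scaling, which moved the median gene by -1.08, 35 members were higher and 0 lower, where 16.4% of all genes were higher and 14.2% lower. Without Ctrl mouse 3349, 29 were higher and 0 lower, where 12.2% and 1.11% of all genes were. Of 24 ribosome biogenesis genes 23 were higher, and of 74 mitochondrial ribosomal genes 70. The last CM libraries (T4 to T10) and Ctrl T10 differ in month, so that age and arm cannot be told apart in this comparison.

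**Figure D5:**
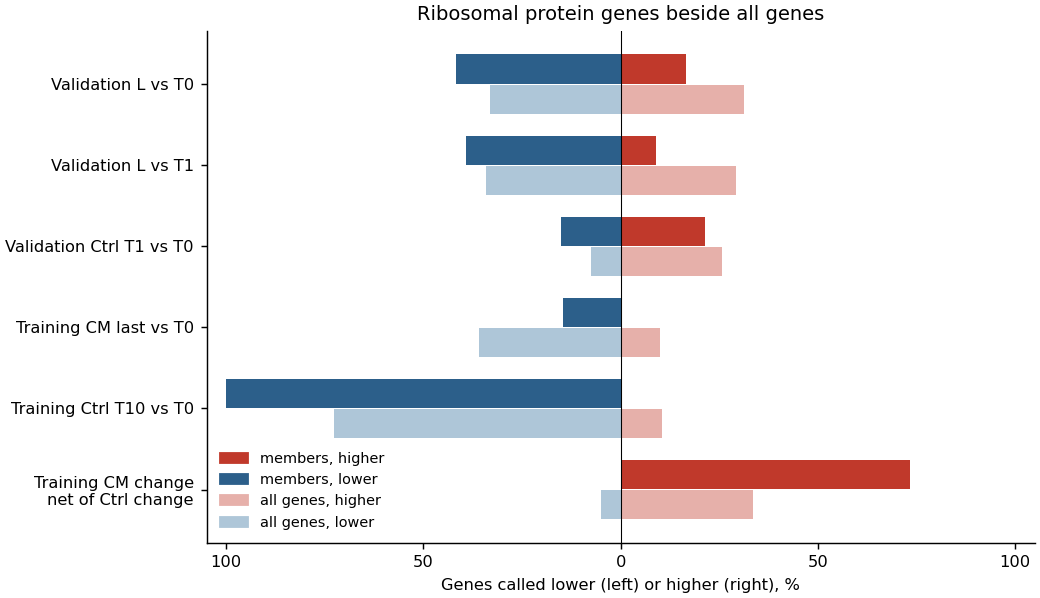
Percent of ribosomal protein genes (dark bars) and of all genes (light bars) called lower (left) or higher (right) at an adjusted p under 0.05 in 6 comparisons. In validation leukemia against T0, 41.8% of members are lower against 33% of all genes, and 16.5% are higher against 31.4%.

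Weekly libraries of 3 CM and 2 Ctrl mice of the validation cohort had 1 library per mouse and week, and are given as values without a test. In CM mouse 3131 the share of reads in ribosomal protein genes was 1.15%, 2.09% and 2.87% in weeks 20, 24 and 28. Its globin share was 23.3%, 1.14% and 0.673% in the same weeks. In CM mouse 3130 the share was 1.62%, 1.98% and 1.44% in weeks 20, 24 and 25, and in CM mouse 3200 it was 1.93%, 2.12% and 1.90% in weeks 10, 14 and 18. Ctrl mice 3127 and 3202 had 1.41% to 1.85% and 1.49% to 1.95%. Rpl14 was at 6.95, 8.37 and 8.87 log2 CPM in mouse 3131, and the 6 Ctrl libraries lay between 7.04 and 7.60. Rps27 lay between 3.15 and 4.30 in the 9 CM libraries and between 4.25 and 5.13 in the 6 Ctrl libraries, and the week 10 library of CM mouse 3200 (4.30) was the only CM library above the lowest Ctrl library.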

How the data were processed

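Gene tables of log2 CPM were used as the authors deposited them, 1 per cohort; per the submitters' processing notes, STAR, Subread featureCounts, edgeR and GRCm38 were used, with versions not given in the sources used here. Table names give low-expression filters of 0.5 CPM (training) and 5 CPM (validation) in 2 samples. Genes were named by Ensembl ID (16266 and 12612 named). With 0.25 prior reads, 100% of values turned back into whole reads within 0.01; limma-voom on these reads called 45 members for L against T0 and 13 for the last training libraries. Intervals were not computed for single libraries; precision follows from the reads behind a value. All genes were fitted with limma 3.58.1 (R 4.3.3, empirical Bayes with trend) and adjusted by Benjamini-Hochberg over all genes; a call is an adjusted p under 0.05. Sex was a covariate between arms, and mouse was the block within mice. The pairing comes from the labels, which give the same animal; deviations of libraries from the same mouse correlated at 0.03 to 0.26 for L against T0 and at -0.17 to 0.23 for the last training library. With no replicate block, 39 members were called for L against T0. Shares of all genes under limma-voom and with no block are not given here.

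The members and gene lists were chosen with earlier results of these data known. Named in each comparison were up to 4 called members with the largest changes in each direction, or the 2 of lowest p where none was called, and copies, stalk genes, Rpl5, Rpl11, Rps14, Rps19 and the highest and lowest members; repeats name fewer, and some members are not reported here. Rpl4, Rpl12, Rpl24 and other members were added after their values were seen. Alternatives were median-ratio scaling (from each library the median over genes of its log2 difference from the cohort mean was subtracted), log2(CPM + 1), a higher filter, limma-voom, no sex covariate or block, library group, and each mouse left out. P-values measure the spread between mice of 1 cohort. Fold changes are differences of deposited log2 values. Figures used Python 3.11.15 and matplotlib 3.10.9.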

Additional observations from a re-analysis of the deposited data

Results flagged for a closer look

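Of 33 groups of libraries looked at for a library far from its group in the share of reads in ribosomal protein genes, 4 had one, and chance gives about 1 in 20. They were mouse 3334 (0.608%, lowest of training CM at T0), mouse 3338 (1.71%, highest of training CM at T4), mouse 3335 (0.841%, highest of training Ctrl at T10) and mouse 2702 (0.754%, lowest of validation Ctrl at T6). The T4 library of mouse 3338 was the last library of that mouse.

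The change to the last CM library differed from the change to T10 in Ctrl mice for 61 members by the test of the difference. In the weekly libraries, which enter no test, the share was above the highest weekly Ctrl library (1.95%) in mouse 3200 at week 14 (2.12%), mouse 3130 at week 24 (1.98%) and mouse 3131 at weeks 24 (2.09%) and 28 (2.87%).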

How the results depend on the processing

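Of 357 counts of called members under alternatives, 336 were within 1.5 times the reported count. Many of these belong to comparisons that called 0 members and mostly stayed at 0. The tally therefore says little about the comparisons with calls. With median-ratio scaling the counts were 3 (training month 2), 1 (validation month 1), 50 (last CM against T0), 32 (Ctrl T10) and 35 (net change), and Rpl11 in the last CM libraries (0.52) and Rpsa (0.96), Rps14 (0.84) and Rplp0 (0.73) at T10 reversed. Of all genes, 7.46% were then higher and 6.21% lower at training month 2. At validation month 1, 9.86% were higher and 9.86% lower, and the other shares are given above. For the counts that follow, shares of all genes are not given here unless stated above. Without the sex covariate 3 were called at training month 3. With no replicate block 17 were called for validation Ctrl T1 against T0, 14 for the last training libraries and 39 for L against T0. Leaving out 1 mouse at a time gave 0 to 3 (training month 2), 0 to 1 (training month 3), 0 to 2 (validation month 1), 7 to 30 (last CM: 7 without 3336, 3338 or 3341, 30 without 3368), 29 to 75 (net), 34 to 48 (L against T0), 30 to 41 (L against T1), 22 to 29 (validation Ctrl T1) and 82 to 83 (T10). The cause was not tested. The globin setting and leaving out mice 2684 and 2731 together were chosen after seeing the data. limma-voom was not run for the net change, and library group could not be fitted at training months 4 and 5. Low members limit precision: Rps13 had 5 to 48 reads in L.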
